A study of Mus musculus with 9 samples.

Results

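Genes that modify or remodel chromatin were followed in the embryonic orofacial tissue of mice, which forms the face and palate, on gestation days (GD) 12, 13 and 14. They were chosen by symbol, from 10 families: histone deacetylases (Hdac), DNA methyltransferases (Dnmt), SWI/SNF-related remodellers (Smarc), chromobox proteins (Cbx), histone demethylases (Kdm), histone acetyltransferases (Kat), the Polycomb repressive complex 2 core (PRC2: Ezh, Eed and Suz12), chromodomain helicases (Chd) and the Hmgb and Hmgn nucleosome-binding proteins. A gene was included when the array annotation gave 1 symbol for its probe set, and the probe set with the highest mean intensity over the 9 arrays stood for it. This gave 46 genes with 62 probe sets, of 8251 genes on the array that had a probe set with 1 symbol. RNA was measured on 1-colour oligonucleotide arrays, 3 per day, and each value is a linear intensity on a scale the authors had set nearly equal across arrays. The groups differ in the labels by gestation day alone; strain, sex, dissection and pooling are not given in the sources used here. The labels do not tie replicates to litters or animals, so p-values measure the spread between these samples, which may be technical.

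DNA is wrapped around histones, and the families here write, erase, read or move that packaging. Deacetylases and the Polycomb complexes are associated with silent genes, acetyltransferases with active ones, and the SWI/SNF and CHD remodellers use ATP to slide or evict nucleosomes. Several of these regulators are needed for cranial neural crest cells, which build most of the facial skeleton: loss-of-function mutations of CHD7, for example, cause CHARGE syndrome in humans.

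The 9 arrays had median intensities of 47.15 to 56.95. The signal of the actin controls at the 3' end divided by that at the 5' end, commonly used to judge RNA quality, was 1.25 to 1.42 on the third array of each day. On the other arrays this actin ratio was higher and differed by day, at 1.54 to 1.77 on GD12, 2.09 to 2.23 on GD13 and 2.29 to 2.45 on GD14, so on those arrays it cannot be told apart from gestation day. Facial mesenchyme markers were detected, and all 16 that were measured passed the filter on low values. Their summed intensity was 5789 to 6286 on GD12, 5129.5 to 5462 on GD13 and 4794 to 5033 on GD14, each day below the one before. In tissue RNA, fewer cells of a type and less RNA per cell cannot be told apart.

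Of the 46 chromatin genes, 41 passed the filter and were tested. The others were Cbx7, Chd1l, Hmgb4, Kdm5a and the Y-linked Kdm5d, whose intensities lay between 1.1 and 17.8 on every array. Further genes fixed for description, Dnmt3b, Cbx3, Hmgb1, Hmgn2 and Hmgn3, were not analysed here. Differences are on the scale of log2(intensity + 3), each with its standard error (SE), and were tested with limma over all 9326 probe sets that passed, with Benjamini-Hochberg adjustment. An adjusted p under 0.05 counted as changed.

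Between GD12 and GD14, 4 chromatin genes fell and 1 rose. Smarcad1, a remodelling helicase, Cbx2, a subunit of Polycomb repressive complex 1, Hmgb3, an HMG-box DNA-binding protein, and Dnmt3a, a de novo DNA methyltransferase, fell by about 1 on the log2 scale, and the chromobox gene Cbx6 rose by a like amount. The share changed was 12.2% of the 41, where 4.6% of the 6867 tested genes changed in the same comparison. Without GD12 replicate 1, GD12 replicate 3, GD14 replicate 1 or GD14 replicate 2 the count of 5 became 2, 3, 2 and 1. Over all 9326 tested probe sets the same omissions left 223, 289, 178 and 215 calls. The lower calls were 4 of 41, against 0.99% of all tested genes, and the single higher call stands against 3.61%. With the called genes included, 33 of the 41 had a log2 difference below 0, where 50.6% of all tested genes did. The median of the 41 was -0.36, against -0.01 for all genes. At an unadjusted p under 0.05, 15 were lower (7.18% of all tested genes) and 3 higher (11.5%). The GD14 values lay below all GD12 values in 17 of 41 (41.5%, against 10.5% of all tested genes) and above them in 3, Smarcd2, Cbx6 and Kat2b (7.32%, against 13.6%). The members share arrays and many are parts of the same complexes, so they are not independent of each other. Without the third array of each day, 31 of 41 were below 0 with a median of -0.29 (48.1% and 0.02 for all genes). Only Dnmt3a and Chd4 then passed, as did 286 of all 9326 tested probe sets. The 2 member counts without the third arrays were added after the data were seen.

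The promoter set used here, with RefSeq starts in the GRCm38.p6 build, held 4 of the 5 changed genes and lacked Cbx2. The 250 bases before the start are printed because these are the promoters of the genes whose level changed. Capitals mark the CCAAT box, the E-box CACGTG and the GC box GGGCGG, searched on both strands. Where RefSeq lists several starts the most upstream is shown, as for Smarcad1 and Dnmt3a. Hmgb3 (chrX:71555667-71555916, plus strand) held 3 CCAAT boxes, the nearest ending 1 base before the start, and 1 GGGCGG.
Hmgb3: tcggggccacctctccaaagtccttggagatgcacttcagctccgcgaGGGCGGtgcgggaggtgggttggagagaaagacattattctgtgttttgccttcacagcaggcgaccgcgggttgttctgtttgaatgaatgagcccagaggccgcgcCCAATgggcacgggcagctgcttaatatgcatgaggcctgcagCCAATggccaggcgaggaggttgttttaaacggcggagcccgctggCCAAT
Cbx6 (chr15:79834334-79834583, minus strand) held 1 CACGTG and 2 GGGCGG.
Cbx6: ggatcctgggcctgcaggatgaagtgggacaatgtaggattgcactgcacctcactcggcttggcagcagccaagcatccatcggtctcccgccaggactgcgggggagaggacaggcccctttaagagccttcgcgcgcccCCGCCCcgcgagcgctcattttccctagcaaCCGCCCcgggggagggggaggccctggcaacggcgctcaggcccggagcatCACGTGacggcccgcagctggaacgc
Dnmt3a (chr12:3806730-3806979, plus strand) held 5 GGGCGG and had a GC content of 82.4%.
Dnmt3a: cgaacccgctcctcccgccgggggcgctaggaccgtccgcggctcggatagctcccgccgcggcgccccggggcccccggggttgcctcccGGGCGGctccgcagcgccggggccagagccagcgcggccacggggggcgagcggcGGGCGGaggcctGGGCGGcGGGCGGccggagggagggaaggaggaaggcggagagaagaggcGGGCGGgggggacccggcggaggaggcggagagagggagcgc
Smarcad1 (chr6:65042341-65042590, plus strand) held none of these letters and had a GC content of 43.2%.
Smarcad1: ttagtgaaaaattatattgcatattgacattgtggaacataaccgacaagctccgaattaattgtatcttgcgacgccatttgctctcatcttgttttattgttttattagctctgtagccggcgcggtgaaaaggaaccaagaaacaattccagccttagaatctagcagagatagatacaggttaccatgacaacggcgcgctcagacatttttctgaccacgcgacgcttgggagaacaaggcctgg
Of the 46 genes, 38 had an entry. In windows of the same length, CCAAT was present in 17 of the 38 (44.7%), against 34.5% of 27018 promoters of all genes. GGGCGG was present in 24 of 38 (63.2%, against 33.0%), and CACGTG in 3 (7.89%, against 6.04%). The median number of CpG was 17 in these promoters and 6 in all. These matches describe letters, not binding sites, and the genes of an array are not a random draw from all genes.

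The chromobox family held the changes in opposite directions. Cbx2 had intensities of 326, 318 and 296 on GD12, then 224, 207 and 237 on GD13 and 195, 136 and 144 on GD14. Each day lay below the one before without overlap. The fall from GD12 to GD14 was 1.98-fold (log2 -0.99, SE 0.17, adjusted p = 0.0138 in limma), and a dimmer probe set, which spread more widely, had -1.56 (SE 0.64, adjusted p = 0.248). Cbx6, whose protein also carries a chromodomain and a Polycomb repressor box, had 257, 312 and 243 on GD12, then 314, 373 and 457 on GD13 and 552, 519 and 479 on GD14. Here every day lay above the one before. Its rise was 1.91-fold (log2 0.93, SE 0.18, adjusted p = 0.0242 in limma), and a separate probe set also gave 0.93 (SE 0.20, adjusted p = 0.036). On that probe set GD13 overlapped GD12, with a first step of 0.16 against 0.48 on the brighter one. Omission of GD12 replicate 1 or GD14 replicate 2 ended the call of Cbx2 (adjusted p = 0.0586 and 0.0558). So did the mean of its probe sets (log2 -1.27, adjusted p = 0.0734) and a fit of the compared groups alone (0.0548). That of Cbx6 ended without GD12 replicate 1 or 3 or GD14 replicate 1 or 2 (highest 0.0961).

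The HP1 proteins bind methylated histone H3 in heterochromatin. Among their genes, Cbx5 (HP1 alpha) gave different answers by probe set. The brighter one had 410, 344 and 499.6 on GD12, then 348, 362 and 403 on GD13 and 297, 310 and 337 on GD14, with a log2 difference of -0.39 (SE 0.17, adjusted p = 0.283). The dimmer one had 315, 368 and 330 on GD12. It had 165, 159 and 230 a day later and 158, 149.6 and 161 on GD14. On that probe set the fall was 2.14-fold (log2 -1.10, SE 0.17, adjusted p = 0.00976), and its GD12 values lay far above those of the later days. With the mean of both probe sets Cbx5 passed (log2 -0.74, adjusted p = 0.0255). Cbx1 (HP1 beta) had 45.9, 61.9 and 83.3 on GD12, then 37.9, 53.9 and 71.4 on GD13 and 64.5, 52.1 and 70.7 on GD14, with a 95% interval of the log2 difference from -0.62 to 0.63.

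**Figure D1:**
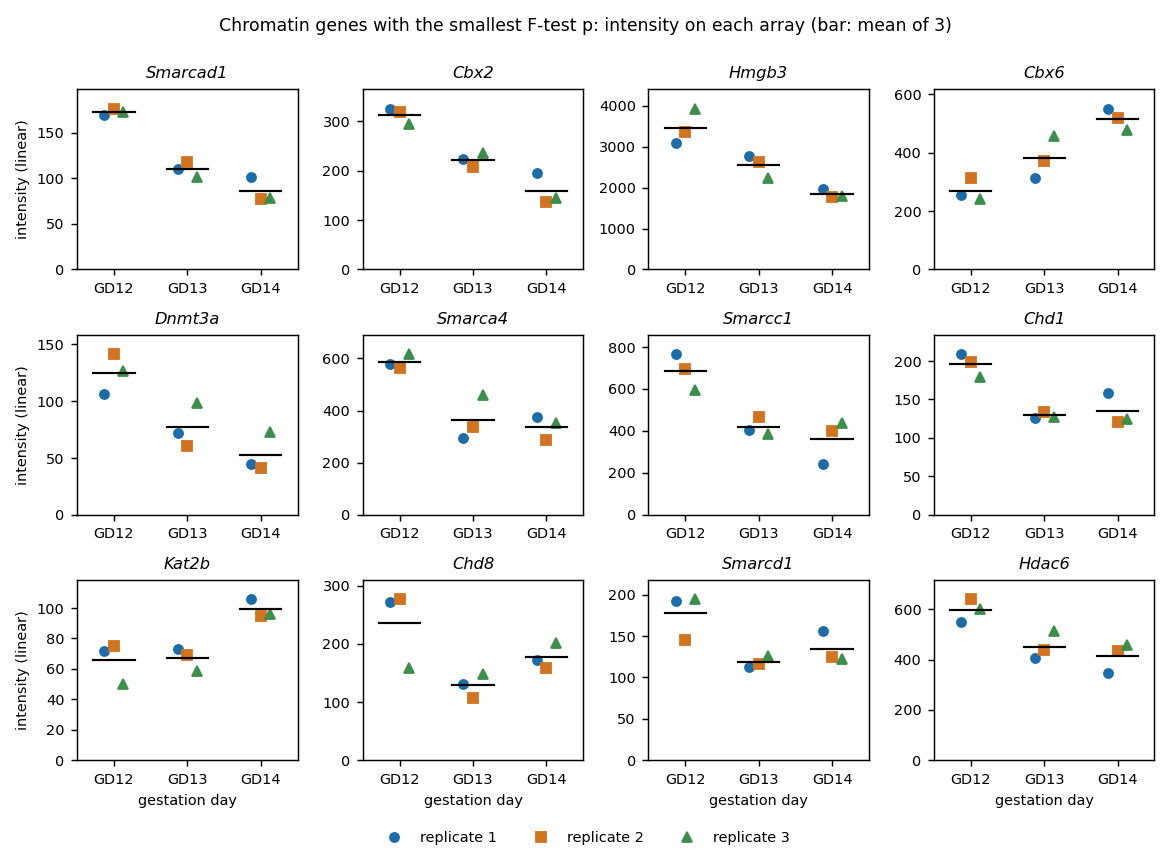
Linear intensity (vertical axes, each from 0) of 12 chromatin genes on GD12, GD13 and GD14 (horizontal axes); symbols are replicates 1 to 3 and bars are means of 3 arrays. Smarcad1, Cbx2 and Hmgb3 step down on each day without overlap and Cbx6 steps up, while for Smarca4, Smarcc1 and Chd1 the GD12 values stand apart from GD13. For Chd8 these days do not overlap, but the third GD12 array (158) lies near the highest GD13 array (149).

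The Smarc family, the largest with 9 genes, had 1 fall and 0 rises between GD12 and GD14 (11.1% of its genes, against 4.6% of all tested genes), and its median was -0.45. With 9 genes, a single call says little about the family. Smarcad1 had 169, 177 and 173 on GD12, then 111, 118 and 102 on GD13 and 102, 77.4 and 78.4 on GD14, with each day below the one before. It fell 1.995-fold (log2 -0.997, SE 0.16, adjusted p = 0.00876), the smallest p of the 41 genes, and passed whichever single array was left out. A second, dimmer probe set had -0.20 (SE 0.39, adjusted p = 0.853), and with the mean of both the call ended (log2 -0.60, adjusted p = 0.15); without the third arrays the adjusted p was 0.0709.

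The SWI/SNF (BAF) genes Smarca4 and Smarcc1 had adjusted p-values just above 0.05. Smarca4, the ATPase Brg1, had 579, 565 and 617 on GD12, then 296, 336 and 459 on GD13 and 377, 286 and 352 on GD14. All GD12 values lay above all later ones. The log2 difference between GD12 and GD14 was -0.80 (SE 0.20, adjusted p = 0.0576), and with the replicate number as a block the gene passed (adjusted p = 0.0432). Smarcc1, the scaffold subunit BAF155, had 767, 695 and 595 on GD12, then 406, 466 and 388 on GD13 and 244, 402 and 438 on GD14, again with no overlap between GD12 and the later days. Its difference was -0.95 (SE 0.23, adjusted p = 0.0571).

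Other remodeller subunits spread on both sides of 0. Smarce1 had 220, 187 and 276 on GD12 and 190.5, 143 and 134 on GD14, which overlapped (log2 -0.54, SE 0.19, adjusted p = 0.191 in limma). Smarcd1 (BAF60a) had 193, 146 and 194 on GD12 and 113, 116 and 125 on GD13, which did not overlap, and 156, 125 and 123 on GD14, which overlapped both. Smarca5, the ISWI ATPase, had 221, 196 and 234 on GD12 and 171, 138 and 166 on GD14 (log2 -0.45, SE 0.17, adjusted p = 0.198), and its second tested probe set had -0.79. Smarca2, the alternative ATPase Brm, stood on the other side: it had 158, 119 and 126 on GD12, then 219.6, 234 and 174 on GD13 and 262, 241 and 92.5 on GD14. Its GD13 values lay above GD12 without overlap, but the third GD14 array was below all GD12 arrays, and the log2 difference over the 2 days had a 95% interval from -0.39 to 1.25. Smarcd2 had 0.41 (SE 0.17, adjusted p = 0.241) on its brightest probe set, and 0.37, -0.15 and -0.17 on the others. Smarcb1, a core subunit and tumour suppressor, had the narrowest interval of the family, from -0.45 to 0.17.

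Chromodomain helicases had the lowest family median of the first daily step. All 4 tested members had GD13 values below GD12 without overlap, where 8.72% of all tested genes did, and their median was -0.70. Chd8, which binds beta-catenin, had 272, 277 and 158 on GD12, then 132, 106 and 149 on GD13 and 172, 159 and 201 on GD14. The GD14 values lay above GD13 again, and the 2 steps were -0.82 (SE 0.24) and 0.46 (SE 0.24). Chd1, a remodeller of active genes, had 209, 198 and 179.8 on GD12, then 126, 134 and 128 on GD13 and 158, 121 and 124 on GD14. Chd7 had 52.8, 62.2 and 63.4 on GD12, then 40.9, 44.1 and 33.0 on GD13 and 33.5, 50.5 and 17.3 on GD14 (log2 from GD12 to GD14 -0.87, SE 0.31, adjusted p = 0.19). None of these steps passed the adjusted threshold.

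Chd4, the ATPase of the NuRD complex, was split by array. It had 2019.7, 1958 and 1961 on GD12. On GD13 it had 832, 729 and 1697, and on GD14 1069, 936 and 1852, so the third array of both later days lay near the GD12 level and the others far below it. With all arrays its log2 difference from GD12 to GD14 was -0.69 (SE 0.35, adjusted p = 0.357). Without the third arrays it was -0.99 (adjusted p = 0.0475). With the actin ratio as a covariate it was -0.29 (adjusted p = 0.397). The third arrays are those with the low actin ratio, and the part of that ratio in the Chd4 values was not tested further. Its probe set name carries the array maker's suffix for sequences shared by a family, so other transcripts may add to it. The brightest probe set of Smarcd2 carries the same suffix, and the Smarcd2 probe set without any suffix had -0.17. Different suffixes mark the brighter probe set of Cbx6, that of Hmgb2 and the dimmer one of Smarcad1. The Cbx6 probe set without any suffix had 0.93. What these suffixes mean for the values was not tested.

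**Figure D2:**
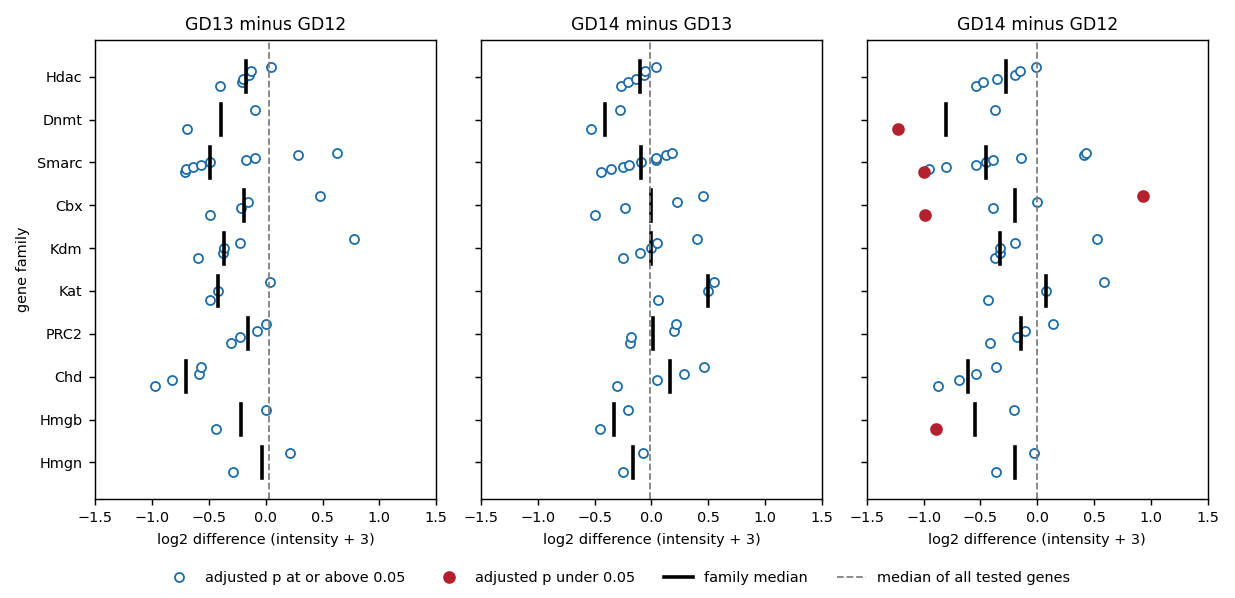
Log2 difference (horizontal axis, log2 of intensity + 3) of each tested chromatin gene, by family (vertical axis), for GD13 minus GD12, GD14 minus GD13 and GD14 minus GD12. Filled points have an adjusted p under 0.05, black bars are family medians and dashed lines the median of all 6867 tested genes; the Chd median of the first step is -0.70 and that of the second 0.16.

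DNA methyltransferases and high mobility group genes held the other changes. Dnmt3a had 107, 142 and 126 on GD12, then 71.6, 60.6 and 98.8 on GD13 and 45.1, 40.8 and 72.7 on GD14. All GD14 values lay below all GD12 values, with the third array highest on both later days. The fall was 2.34-fold (log2 -1.23, SE 0.26, adjusted p = 0.0317). It passed without the third arrays (adjusted p = 0.0366) but not when GD12 replicate 1, 2 or 3, GD13 replicate 1, or GD14 replicate 1 or 2 was left out alone (adjusted p = 0.0567 to 0.121). The call also ended with no filter (0.0524), with the compared groups alone (0.0637) and with averaged probe sets (log2 -0.24, adjusted p = 0.661). Its second probe set, at 0.3 to 8.4, was under the filter. The maintenance methyltransferase Dnmt1 had 556, 533 and 771 on GD12, then 541, 484 and 709.6 on GD13 and 436, 471 and 508 on GD14. GD12 and GD14 did not overlap, and the log2 difference was -0.37 (SE 0.20, adjusted p = 0.398).

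Hmgb3 had 3083, 3347 and 3933 on GD12, then 2776, 2619.6 and 2246 on GD13 and 1977, 1783 and 1793 on GD14. Each day lay below the one before without overlap. The fall was 1.86-fold (log2 -0.89, SE 0.16, adjusted p = 0.0157), and it did not pass without GD14 replicate 1 (adjusted p = 0.051), without GD14 replicate 2 (0.0612) or with the compared groups alone (0.0521). Hmgb2, a paralogue linked to dividing cells, had 178, 156 and 229 on GD12, then 218, 219.5 and 133 on GD13 and 187, 186 and 119 on GD14, with a 95% interval of the log2 difference from -0.81 to 0.41. Hmgn1, a nucleosome-binding protein, had 8773, 8860.0 and 10686 on GD12, then 7472, 7397 and 8225 on GD13 and 6653, 6167 and 9551 on GD14. GD13 lay below GD12, but the third GD14 array returned into the GD12 range (log2 from GD12 to GD14 -0.36, SE 0.19, adjusted p = 0.387). Hmgn5, which is X-linked, had an interval from -0.37 to 0.31.

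Histone deacetylases were close together. All 6 had log2 differences below 0 between GD12 and GD14 (50.6% of all tested genes), from -0.54 to -0.01, with a median of -0.28. In limma 0 passed (4.6% of all tested genes), and 2 were lower at an unadjusted p under 0.05 (7.18% of all). Hdac6, a mainly cytoplasmic tubulin deacetylase, had 551, 640.1 and 602 on GD12, then 405, 439 and 512 on GD13 and 347, 435 and 458 on GD14. All GD12 values lay above the later ones (log2 from GD12 to GD14 -0.54, SE 0.17, adjusted p = 0.13). Hdac3, the enzyme of the NCoR/SMRT corepressors, had -0.48 (SE 0.16, adjusted p = 0.154). Hdac1 and Hdac2 are the class I pair of the NuRD and Sin3 complexes. Hdac1 had 469.8, 487 and 595 on GD12, then 454, 466 and 473 on GD13 and 378, 352 and 482 on GD14. Its GD14 values overlapped GD12 on 1 array, and the log2 difference had a 95% interval from -0.75 to 0.03. Hdac2 had 726, 617 and 838 on GD12, then 752, 597 and 635 on GD13 and 749, 539 and 622 on GD14. The days overlapped throughout, with an interval from -0.62 to 0.24. The class II genes Hdac5 and Hdac7 had -0.01 and -0.16.

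The PRC2 core, which methylates lysine 27 of histone H3, also had 0 calls in limma (4.6% of all tested genes from GD12 to GD14). Between GD12 and GD14, 1 of 4 was lower at an unadjusted p under 0.05 (7.18% of all tested genes). Ezh2, its main methyltransferase in dividing cells, had 788, 786 and 816 on GD12, then 760.3, 658 and 629 on GD13 and 660.1, 598 and 537 on GD14. The GD12 values lay above all later ones by a small step (log2 from GD12 to GD14 -0.42, SE 0.15, adjusted p = 0.182). The alternative enzyme Ezh1 had -0.11 (SE 0.19). Eed, the subunit that binds the mark, had 231, 292 and 174 on GD12, then 249.7, 252 and 186 on GD13 and 239, 199 and 169 on GD14 (log2 from GD12 to GD14 -0.18, SE 0.23, adjusted p = 0.774). Suz12, the scaffold subunit, had 67.2, 76.7 and 84.8 on GD12, then 53.8, 95.3 and 71.6 on GD13 and 80.5, 97.1 and 74.6 on GD14 (0.13, SE 0.22, adjusted p = 0.823). For both genes the days overlapped. The 3 tested probe sets of Suz12 had 0.13, 0.10 and -0.41, none past the threshold.

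Of the 3 acetyltransferase and 5 demethylase genes tested, 0 passed in limma in any comparison of days. Of all tested genes 0.728% passed in the first step, 0.0437% in the second and 4.6% between GD12 and GD14. With so few genes, 0 calls say little about these families. Between GD12 and GD14, 1 was higher and 1 lower at an unadjusted p under 0.05 (11.5% and 7.18% of all tested genes). Kat2b (PCAF) had 72.0, 75.2 and 50.1 on GD12, then 73.2, 69.1 and 58.4 on GD13 and 106, 95.0 and 96.4 on GD14. GD14 lay above both earlier days (log2 from GD12 to GD14 0.59, SE 0.19, adjusted p = 0.134). Kat7 had its lowest mean on GD13, with a second step of 0.49 (SE 0.18, adjusted p = 0.556). Kat2a (GCN5), the paralogue of Kat2b, had 30.5, 70.8 and 212 on GD14, a spread that covers all its other values. Among the demethylases, Kdm1a (LSD1) had 37.1, 29.6 and 46.6 on GD12, then 56.3, 85.4 and 58.9 on GD13 and 49.8, 70.5 and 46.4 on GD14, with GD13 above GD12 (log2 0.77, SE 0.24, adjusted p = 0.259). Kdm3a and Kdm3b, which act on lysine 9 of histone H3, had -0.37 and -0.33 between GD12 and GD14, with GD14 below GD12 without overlap in both. Kdm5b had -0.59 (SE 0.23) in the first step and 0.40 (SE 0.23) in the second. The X-linked Kdm6a had an interval from -0.70 to 0.05 between GD12 and GD14.

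Lower values were more frequent in the first daily step than in the second. From GD12 to GD13, 0 of the 41 genes passed in limma, where 0.728% of all tested genes did, and 14 lower (4.34% of all) and 2 higher genes (7.03% of all) had an unadjusted p under 0.05. A difference below 0 was found in 33 of 41 (46.3% of all). The 3 GD13 values lay below the 3 GD12 values in 21 of 41 genes (51.2%), where 8.72% of all tested genes showed this, and above them in 4, where 11.1% did. The 4 were Smarca2, Smarcd2, Cbx6 and Kdm1a. From GD13 to GD14, 0 passed (0.0437% of all tested genes), and 4 lower (2.43% of all) and 3 higher genes (5.02% of all) had an unadjusted p under 0.05. A difference below 0 was found in 24 of 41 (52.8% of all), and 6 genes lay below without overlap (5.72% of all) and 4 above (8.02% of all). The medians of the steps were -0.23 and -0.07, against 0.03 and -0.02 for all tested genes; both steps use the GD13 arrays. The second median was -0.019 without GD14 replicate 3, -0.035 without GD14 replicate 1 and -0.042 without GD13 replicate 3, close to the value of all tested genes. Without the third arrays the corresponding medians were -0.25 and -0.04. The difference between the 2 steps itself passed for 0 of 41 genes and for 0% of all tested genes in limma. Steps of unlike size were therefore not shown for any single gene.

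A test over the 3 days together passed for 3 genes, Smarcad1 (adjusted p = 0.0255), Cbx2 (0.0421) and Hmgb3 (0.0471), and for 2.88% of all tested genes. These are also the 3 genes whose values fell below the previous day on both steps without overlap, a pattern seen in 0.757% of all tested genes, while Cbx6 was the single gene above the previous day on both steps (2.34% of all). With the replicate block the F-test of Hmgb3 no longer passed and 2 genes did. Without GD12 replicate 1, 2 or 3, GD13 replicate 1 or 2, or GD14 replicate 2, 0 genes passed this test, and without the third arrays likewise 0. Without GD13 replicate 3 the single call was Smarcad1, and without GD14 replicate 3 it was Dnmt3a.

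**Figure D3:**
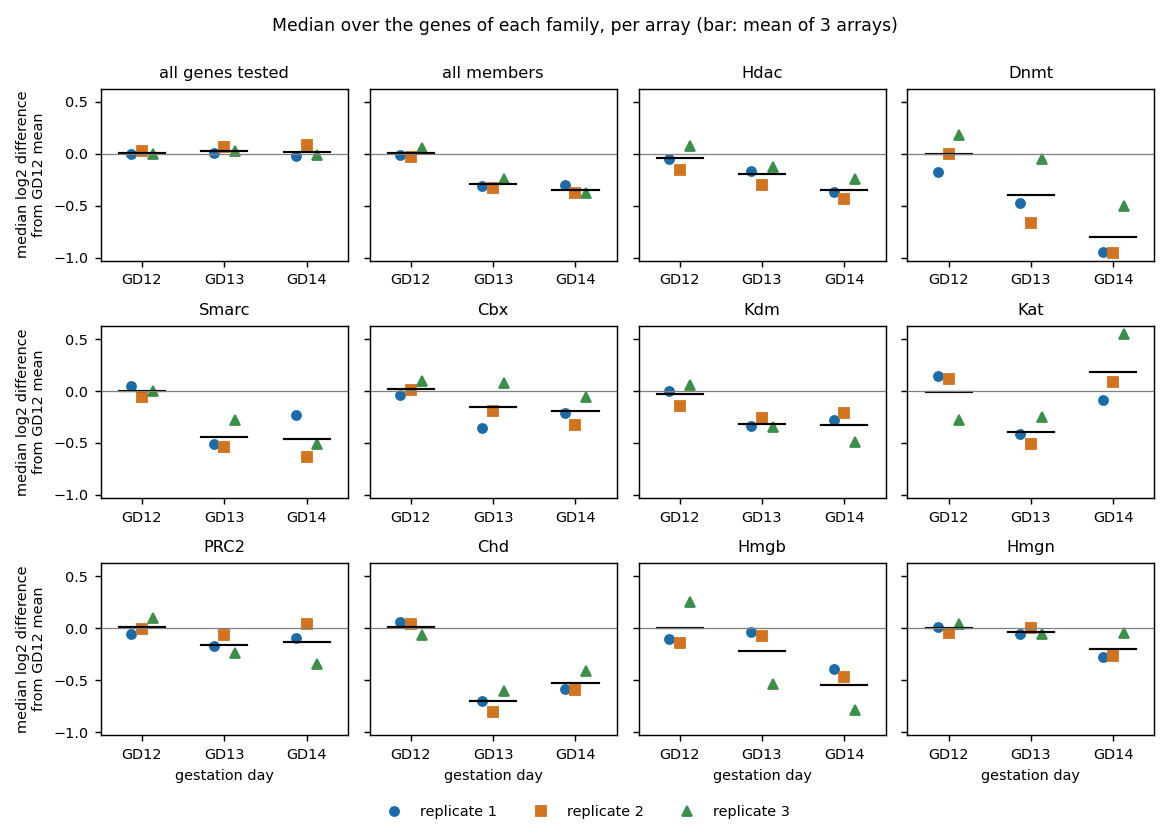
Median over the tested genes of each family of the log2 difference from the gene's GD12 mean (vertical axis), for each array by gestation day (horizontal axis); symbols are replicates and bars the mean of 3 arrays. The median of all 41 chromatin genes is between -0.24 and -0.33 on the GD13 arrays and between -0.30 and -0.38 on the GD14 arrays, while that of all tested genes stays between -0.02 and 0.08.

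Set against each array, the family medians separated the days to different degrees. The median over all 41 genes, relative to the GD12 means, was -0.31, -0.33 and -0.24 on the GD13 arrays and -0.30, -0.37 and -0.38 on the GD14 arrays, while the GD12 arrays had -0.01, -0.03 and 0.06. All later arrays lay below all GD12 arrays. In the Chd family the GD13 arrays had -0.70, -0.81 and -0.61 and the GD14 arrays -0.59, -0.60 and -0.41. The Smarc family had -0.51, -0.54 and -0.28 on GD13 and -0.24, -0.63 and -0.51 on GD14. The Kat family had no common course, with -0.08, 0.09 and 0.55 on the GD14 arrays. The Dnmt and Hmgb medians rest on 2 tested genes each, as does Hmgn.

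Between GD12 and GD14 the family medians were ordered from Dnmt (-0.80), Chd (-0.61), Hmgb (-0.55) and Smarc (-0.45) through Kdm (-0.33), Hdac (-0.28), Cbx (-0.20), Hmgn (-0.19) and PRC2 (-0.14) to Kat (0.07). With single arrays left out the Kat median lay between -0.067 and 0.20, on both sides of 0. That of PRC2 lay between -0.24 and -0.045, that of Hdac between -0.35 and -0.18 and that of Cbx between -0.30 and -0.024. The order of these families is therefore not settled. The ranges of Chd (-0.66 to -0.48), Hmgb (-0.63 to -0.42) and Smarc (-0.52 to -0.36) overlapped as well, so neither is theirs. With averaged probe sets the Dnmt median was -0.10. Neighbours in this order lay closer than the spread of their members, and differences between families were not tested. The Cbx median hides members from -0.99 to 0.93.

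**Figure D4:**
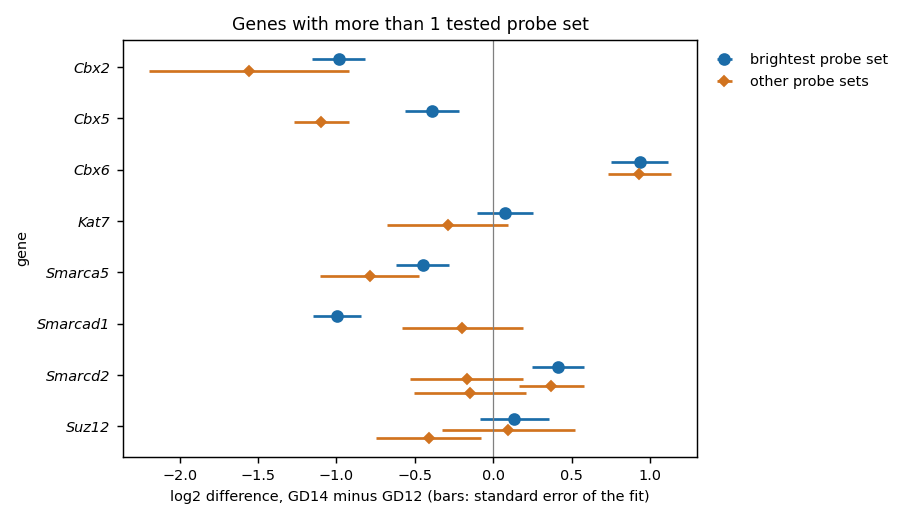
Log2 difference between GD12 and GD14 (horizontal axis; bars are the standard error of the fit) for the 8 chromatin genes with more than 1 tested probe set (vertical axis). The 2 probe sets of Cbx6 both give 0.93, those of Cbx2, Cbx5 and Smarca5 are all below 0, and the second probe set of Smarcad1 is at -0.20 beside -0.997.

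Several of these genes had more than 1 probe set, which gives a check that the choice of the brightest did not use. Of 13 such genes 8 had more than 1 that passed the filter. Both probe sets were on the same side of 0 for Cbx2, Cbx5, Cbx6, Smarca5 and Smarcad1 in the comparison of GD14 with GD12, and they were on different sides for Kat7, Smarcd2 and Suz12.

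Other chromatin genes, taken from a list of 108 written from textbook knowledge, also lay mostly below 0. Of 62 tested, 3 fell and 0 rose between GD12 and GD14 (0.99% and 3.61% of all tested genes). A difference below 0 was found in 53 of 62 (85.5%, against 50.6% of all tested genes), with a median of -0.23. They were Jarid2, a PRC2 cofactor (384 ± 42.9 to 221 ± 38.9), Uhrf1, which guides Dnmt1 to replicated DNA (466 ± 31.2 to 300.4 ± 37.2), and Arid2, a subunit of the PBAF remodeller (267 ± 23.3 to 146 ± 7.95; SD, n = 3 each), with adjusted p = 0.0426, 0.0494 and 0.0496. In each daily step 0 of the 62 passed (0.728% of all tested genes in the first and 0.0437% in the second).

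Markers of dividing cells and of other cell types moved over the same days. Of 46 cell cycle genes 3 fell (Stmn1, Rrm2 and Kif2c) and 0 rose between GD12 and GD14 (median -0.41). Of all tested genes 0.99% fell and 3.61% rose in this comparison. The summed intensity of the cell cycle genes went from 25296 to 27963 on GD12 to 18013 to 20759 on GD14. Of the 16 facial mesenchyme markers 1 fell, Msx1, and 0 rose (median -0.35). Among 17 neuronal markers 2 fell and 0 rose (median -0.72), and the sum was 3617 to 6137 on GD12 and 2347 to 3148 on GD14. Rises were found in 6 of 15 oral epithelium markers (sum 1664 to 1877 and 3662 to 4126), 9 of 18 skeletal muscle genes (1768 to 2338 and 3872 to 5888), 7 of 13 leukocyte markers (594 to 632 and 1189 to 1416) and 5 of 13 bone and cartilage genes (891 to 1063 and 3219 to 4972), with 0 falls in each. Of 10 erythroid genes 1 rose and 3 fell (sum 22638 to 28888 and 14792 to 18637), and of 12 endothelial genes 0 changed (sum 1494 to 1553 and 1715 to 1855). A difference below 0 was found in 42 of 46 cell cycle genes (91.3%) and 16 of 17 neuronal markers (94.1%). It was found in 11 of 16 mesenchyme markers (68.8%) and 60% of the erythroid genes. In the other lists of this paragraph the share was 5.56% to 25%, where 50.6% of all tested genes lay below 0. Sums cover all listed genes with a probe set, and no marker was at 0 on all arrays. The part of these shifts in cell makeup and division in the chromatin gene levels was not tested.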

How the data were processed

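The deposited table held 1 intensity for each of 12488 probe sets on 9 arrays; the values show that the authors had scaled the arrays to nearly equal trimmed means, and the image software is not given in the sources used here. The array annotation gave 1 symbol for 10833 probe sets, and gene IDs were looked up in the GRCm38.p6 gene table. Intensities became log2 values after adding 3. The 66 control probe sets and those at or under the 25th percentile of mean log2 values (an intensity of 10.4) were left out. The remaining 9326 entered limma 3.58.1 in R 4.3.3 with 3 day means, and p-values were adjusted over all of them. Python 3.11.15, pandas 2.3.3, numpy 2.4.6 and matplotlib 3.10.9 made summaries and plots. The fit was tested on simulated data. Arrays carry no read depth, and 3 per day limit the precision.

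Arrays of the same replicate number in the titles had residual correlations of 0.19 to 0.42, so the numbers pair the arrays; the reported fit has no block, and the blocked value is given where it changes a call. Named were the 12 genes with the smallest F-test p, all that passed among them, and 20 fixed genes; other genes described singly were picked after their values were seen. Members and lists were chosen with earlier results of these data known. Alternatives were other scalings, added values, filters and variance models, array weights, the replicate block, the actin ratio as a covariate, averaged probe sets, the compared groups alone and omission of arrays.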

Additional observations from a re-analysis of the deposited data

How the results depend on the processing

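With single arrays left out, the number of chromatin genes changed between GD12 and GD14, 5 in the reported fit, lay between 1 (without GD14 replicate 2) and 6. Omitting GD12 replicate 1 left 2, GD12 replicate 3 left 3 and GD14 replicate 1 left 2. The count was 2 with the compared groups alone, 2 without replicate 3 of each day and 6 with the replicate block, which added Smarca4, took Hmgb3 from the F-test calls and changed no other call of these genes. Under the other settings it was 4 to 7. Calls over all 9326 tested probe sets varied as well, from 178 without GD14 replicate 1 to 620 with the replicate block. From GD12 to GD13 array weights gave 2 calls in place of 0 (Smarca4 and Chd8), and called 201 of all 9326 probe sets. The reported fit called 0.728% of all tested genes there. The F-test count of 3 became 0 with median scaling, 0 with no filter and 6 with the filter at the median. It was 7 with trend and robust variances, 7 with array weights, 1 with the actin covariate and 0 without replicate 3 of each day. With single arrays left out it was 0 to 2. Over all 9326 probe sets this test called 84 without replicate 3 of each day and 405 with array weights.

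The number of genes below 0 between GD12 and GD14 was 31 to 34 over these settings, with 41 tested except under the filter at the median (31 of 39). The median of all of them was -0.29 with the actin covariate, -0.29 without replicate 3 of each day and between -0.40 and -0.27 with single arrays left out. The Dnmt median was -0.10 with averaged probe sets. That of Smarc was -0.29, Kdm -0.21 and Hmgb -0.31 without replicate 3 of each day. With untested members included, the Cbx median was 0.00040 and the Hmgb median -0.20; single omissions gave Cbx -0.30 to -0.024. The Chd median was -0.44 with the actin covariate and -0.66 to -0.48 with single omissions. The Hmgn median was -0.076 with quantile normalization. Of 1518 differences of named genes recomputed under alternatives, 47 changed sign, none of them past the threshold in either fit; 25 lost and 18 gained a call. Why results moved between settings was not tested.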
